A study of Mus musculus with 8 samples.

Results

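Aminoacyl-tRNA synthetases, the enzymes that join each amino acid to its transfer RNA, were followed in mouse embryonic stem cells (ESCs, cultured pluripotent cells of the early embryo) under chemical inhibition of MYC and after its withdrawal. The members were listed by gene symbol, 20 cytosolic synthetase genes and 16 mitochondrial ones whose symbols end in 2. A probe set annotated to a single gene was found for 35 of these 36 symbols, which are 35 of the 18193 genes measured. They comprise 19 cytosolic genes and all 16 mitochondrial genes. Dars, the cytosolic aspartate enzyme, was not analysed here, and Mars was found under its newer symbol Mars1. Where a gene had several probe sets, the one with the highest mean over the 8 arrays was taken.

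RNA of 8 samples was hybridised to Affymetrix arrays, 1 array per sample. All cells grew on gelatine, free of serum and feeders, in 2i medium with LIF, which contains the MEK inhibitor PD0325901 at 1 μM and the GSK3 inhibitor CHIR99021 at 3 μM, so every group carried these inhibitors. The DMSO group (3 arrays) received the solvent for 60 h. The MYCi group (2 arrays) received 64 μM of 10058-F4, a small molecule that disturbs the pairing of MYC with MAX, for 60 h, and the Resc group (3 arrays, called released cells here) had the same 60 h and then 48 h in 2i medium without the compound. The DMSO and MYCi arrays come from 60 h, so in every comparison with released cells the withdrawal cannot be told apart from the 48 h of further culture. The labels name no cell line or clone and do not say whether arrays of a group stem from separate cultures. The p-values therefore reflect only how much these arrays vary, part of which may be technical. A single dose and a single compound were used, so effects of 10058-F4 that do not run through MYC cannot be told apart from those that do.

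A synthetase activates its amino acid with ATP and transfers it to the matching tRNA, and the charged tRNA is then used by the ribosome. The cytosol and the mitochondrion have largely separate sets of these enzymes, and the mitochondrial enzymes are made from nuclear genes and imported. Gars and Kars each provide the glycine and lysine enzyme of both compartments, and Qars has no mitochondrial counterpart because mitochondria charge their glutamine tRNA through Ears2 and an amidotransferase. In many cells, genes of cytosolic synthetases are among the targets of ATF4, a transcription factor whose translation rises when uncharged tRNA or other stress activates eIF2 kinases. MYC is also known to bind many genes of protein synthesis.

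Values are log2 levels, in which a difference of 1 is a doubling. They are relative within an array, and fewer cells of a type cannot be told apart from less RNA per cell. Correlations across genes between arrays of 1 group lay between 0.9977 and 0.9982, and between MYCi and DMSO arrays between 0.9803 and 0.9808. A gene was called where its adjusted p was under 0.05 (limma, Benjamini-Hochberg over all genes), and with the inhibitor 19.2% of all genes rose and 22.3% fell. The 12 listed markers of pluripotent cells averaged 10.92 to 10.94 on DMSO arrays and 10.60 to 10.62 on MYCi arrays. Among them 4 rose and 5 fell with the inhibitor, the falls including Lin28a (-2.83 ± 0.094, log2 change ± moderated standard error, SE) and Utf1 (-1.79 ± 0.061) and the rises Zfp42 (0.69 ± 0.073), while Pou5f1 (-0.04 ± 0.072), Nanog (-0.10 ± 0.058) and Sox2 (0.12 ± 0.073) had no call. Markers of fibroblasts, endoderm, mesoderm and neural cells averaged at most 5.14 on any array. Single markers read higher, such as Vim (8.97 to 10.14) and Fbln1 (7.86 to 9.0). Of these lists, 3 of 15 fibroblast, 3 of 12 endoderm, 2 of 9 mesoderm and 3 of 9 neural markers fell, and 1 neural marker rose. The falls included Vim (-1.04 ± 0.085) and Fbln1 (-1.02 ± 0.076) of the fibroblast list, Tubb3 (-1.39 ± 0.079) and Map2 (-2.13 ± 0.12) of the neural list and Gsc (-1.57 ± 0.076) of the mesoderm list. Of the trophectoderm markers 8 of 14 rose and 0 fell, and their mean level was 5.32 to 5.40 on DMSO, 6.61 to 6.71 on MYCi and 5.34 to 5.45 on Resc arrays. Krt18 (5.0 ± 0.15), Krt19 (4.94 ± 0.15), Krt8 (3.24 ± 0.086) and Eomes (2.23 ± 0.070) had the smallest p in that list, while the defining factor Cdx2 differed by -0.20 ± 0.14 and Elf5, at 2.75 to 3.2 on all arrays, lay near the bacterial Trpn control probe sets (2.15 to 2.95). The 3′ to 5′ difference of the Gapdh control probe sets was -0.130 to -0.108 on DMSO, -0.216 to -0.148 on MYCi and -0.133 to -0.117 on Resc arrays. Whether any of these marker genes or the Gapdh ratio has a part in the synthetase results was not tested.

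With the inhibitor, 9 of 19 cytosolic synthetase genes rose and 4 fell relative to DMSO, and 6 did not pass the test. Over all 18193 genes, 19.2% rose and 22.3% fell. Called upward were 47.4% of the cytosolic members against 19.2% of all genes. Called downward were 21.1% against 22.3%, so the share of falls was near that of all genes. The median log2 change of the cytosolic members was 0.15, from -0.54 for Kars to 0.97 for Wars, where the median of all genes was -0.06. In 16 of the 19 genes the MYCi and DMSO arrays did not overlap (11 higher and 5 lower), as in 60.5% of all genes. The changes were modest, the largest being just under a doubling. On single arrays the median of the 19 members above the DMSO mean was 0.24 on MYCi array 1 and 0.07 on MYCi array 2, so this median depended on which of the MYCi arrays was used. The counts depended less on them, at 10 to 13 called members when any array was left out.

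Wars, which charges tryptophan tRNA, had the largest change. Its log2 levels were 7.48, 7.43 and 7.40 on the DMSO arrays, 8.44 and 8.37 on the MYCi arrays and 7.62, 7.61 and 7.67 on the Resc arrays. Both MYCi arrays lay well above every DMSO array, and the Resc arrays lay a little above the DMSO arrays without overlap. The rise was 1.96-fold (0.97 ± 0.061; limma adjusted p = 1.41e-06).

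Eprs encodes the fused glutamate and proline enzyme, the only one of the family with a pair of activities. It read 10.52, 10.57 and 10.62 with DMSO, 11.20 and 11.22 with the inhibitor and 10.60, 10.65 and 10.61 after release. The MYCi values stood apart, whereas the Resc values fell within or just above the DMSO range. Eprs rose 1.55-fold (0.63 ± 0.061). Sars, the serine enzyme, which also charges the selenocysteine tRNA with serine, read 10.13, 10.23 and 10.18 with DMSO, 10.84 and 10.71 with the inhibitor and 10.22, 10.28 and 10.20 after release, a 1.51-fold rise (0.60 ± 0.068). Its pattern was like that of Eprs, with overlap between DMSO and Resc arrays and none with MYCi arrays.

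Aars, the alanine enzyme, read 10.22, 10.28 and 10.33 with DMSO and 10.83 and 10.71 with the inhibitor, and stayed at 10.49, 10.53 and 10.47 after release. The 3 groups did not overlap, and the Resc arrays lay between the others. It rose 1.41-fold with the inhibitor (0.49 ± 0.066). Nars, the asparagine enzyme, showed the same order, with 11.29, 11.33 and 11.47 on DMSO, 11.84 and 11.74 on MYCi and 11.58, 11.64 and 11.55 on Resc arrays, a 1.35-fold rise with the inhibitor (0.43 ± 0.073). Gars, the glycine enzyme of both compartments, read 11.50, 11.51 and 11.56 with DMSO, 11.95 and 11.86 with the inhibitor and 11.63, 11.69 and 11.66 after release, again without overlap among the groups, and rose 1.30-fold (0.38 ± 0.062). Lars, the leucine enzyme, which is also known as a leucine sensor upstream of mTORC1, rose 1.26-fold (0.33 ± 0.064) from 10.55, 10.64 and 10.57 to 10.96 and 10.87.

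The smallest called rises were those of Iars, the isoleucine enzyme (0.25 ± 0.074; limma adjusted p = 0.0214), and Tars, the threonine enzyme (0.25 ± 0.069; 0.0162). Iars read 10.93, 10.90 and 11.08 with DMSO and 11.28 and 11.16 with the inhibitor, and its lowest MYCi value exceeded its highest DMSO value by a narrow margin. Its call ended without DMSO replicate 1 (0.0594), DMSO replicate 2 (0.0607) or MYCi replicate 1 (0.156). Tars read 10.49, 10.56 and 10.53 with DMSO and 10.80 and 10.76 with the inhibitor, and its call ended without MYCi replicate 1 (0.0934) or MYCi replicate 2 (0.0532).

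The 4 cytosolic genes that fell were Kars, Qars, Vars and Hars. Kars, the lysine enzyme of cytosol and mitochondria, read 10.26, 10.24 and 9.93 with DMSO, 9.66 and 9.55 with the inhibitor and 10.27, 10.22 and 10.16 after release. One DMSO array was lower than the rest, but the MYCi arrays were lower still, and the Resc arrays returned to the upper DMSO values. The fall was 1.45-fold (-0.54 ± 0.10; limma adjusted p = 0.00173). Qars, the glutamine enzyme, read 10.88, 10.95 and 10.96 with DMSO, 10.61 and 10.63 with the inhibitor and 10.95, 11.04 and 11.03 after release, a 1.24-fold fall (-0.31 ± 0.062). Vars, the valine enzyme, went from 8.68, 8.65 and 8.61 to 8.35 on both MYCi arrays and back to 8.63, 8.64 and 8.68, a 1.23-fold fall (-0.30 ± 0.059). In Qars and Vars the MYCi arrays were the lowest of all 8. Hars, the histidine enzyme, fell 1.18-fold (-0.24 ± 0.075; 0.0251), from 9.53, 9.63 and 9.57 to 9.25 and 9.41, and lost its call without DMSO replicate 2 (0.0684) or MYCi replicate 1 (0.201).

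The cytosolic members that did not pass were Cars (0.15 ± 0.084), Yars (0.14 ± 0.069), Farsb (0.06 ± 0.059), Rars (0.05 ± 0.069), Mars (0.03 ± 0.065) and Farsa (-0.19 ± 0.070). Farsa and Farsb encode the alpha and beta subunits of the cytosolic phenylalanine enzyme, which works as a heterotetramer. Farsa had a limma adjusted p of 0.058 and passed without DMSO replicate 1 (0.0458), with median centring (0.011) and under 3 other alternatives. In the plot of levels by array, the cytosolic genes form a graded series from Wars to Kars, and Cars, Rars and Mars are the genes whose MYCi and DMSO arrays overlap.

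**Figure D1:**
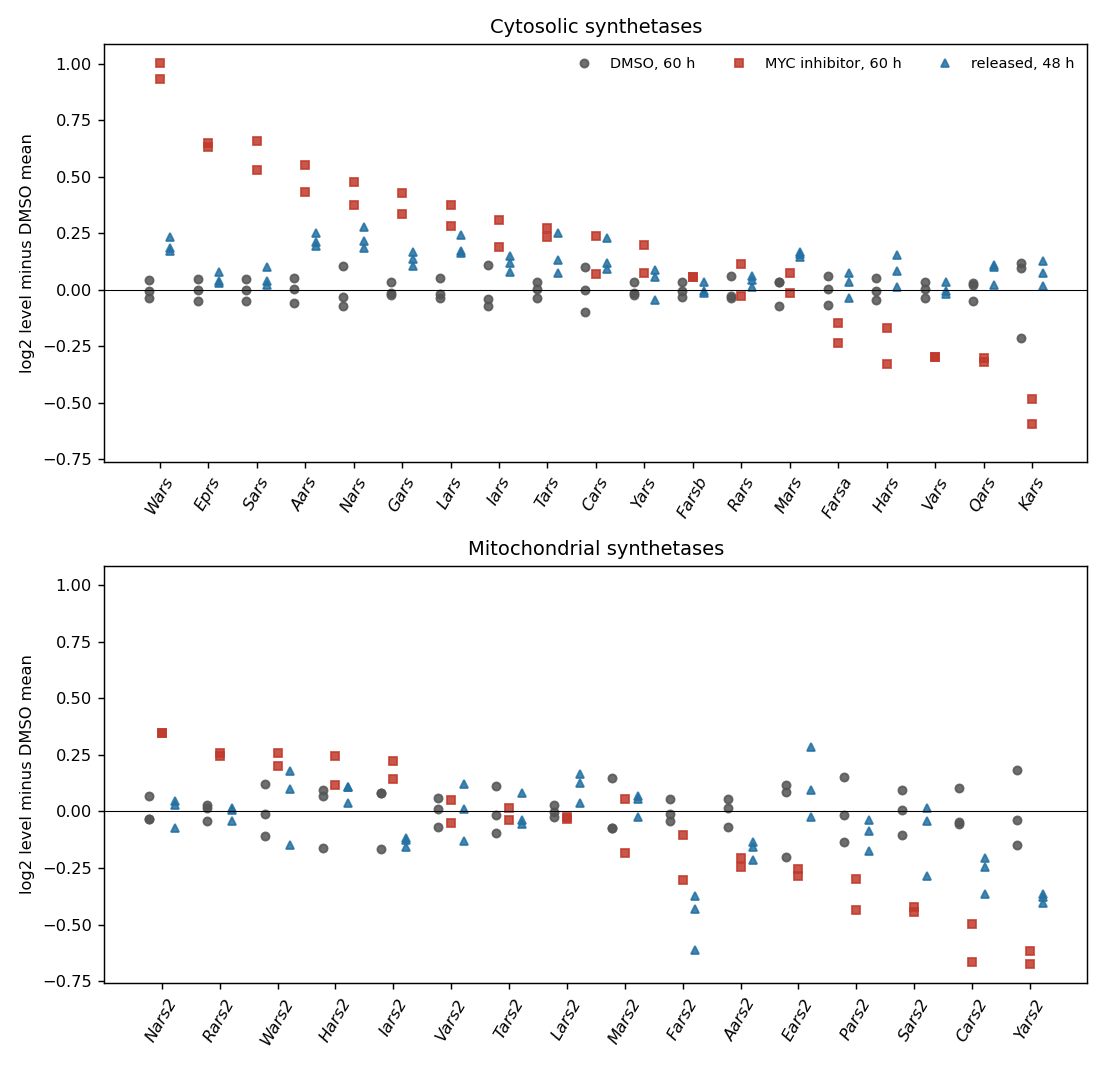
Log2 level of each synthetase gene on each array minus the mean of its 3 DMSO arrays (vertical axis), for 19 cytosolic genes (upper panel) and 16 mitochondrial genes (lower panel), ordered by the change with the inhibitor; points are single arrays of the DMSO (circles), MYC inhibitor (squares) and released (triangles) groups. MYCi points of Wars lie near 1 and those of Kars near -0.54 on average, and those of Yars2 average -0.65.

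In cells, Dars, Eprs, Iars, Kars, Lars, Mars, Qars and Rars join a large multi-synthetase complex held together by the scaffold proteins Aimp1, Aimp2 and Eef1e1 (AIMP3). Of the 7 measured enzymes of the complex, 3 rose (Eprs, Lars and Iars, 42.9%), 2 fell (Kars and Qars, 28.6%) and 2 did not pass. Over all genes 19.2% rose and 22.3% fell, so the share of falls was near that of all genes. The Qars fall was lost with the mean of its probe sets (-0.01). Of the other 12 cytosolic genes, 6 rose (50%) and 2 fell (16.7%). Among the scaffolds, Aimp2 fell (-0.38 ± 0.067; limma adjusted p = 0.00107), while Aimp1 (0.08 ± 0.069) and Eef1e1 (0.11 ± 0.065) did not pass.

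The rising genes were set against short motifs in their promoters, since several moved together. RefSeq promoter windows (GRCm38.p6, 250 bases before to 50 after the start) were found for 26 of the 35 members, and none was used for Cars, Hars, Lars, Nars, Rars, Vars, Wars, Hars2 and Pars2. The motif TGATGNAA (TTNCATCA on the other strand), the core of the C/EBP-ATF response element bound by ATF4 with its partners, occurred in 5 of 12 cytosolic members (41.7%) and in 0 of 14 mitochondrial members. Over 27025 genes with such windows it occurred in 4.51%. Among cytosolic members it was found in 4 of the 6 that rose and have a window (Aars, Gars, Iars and Tars, but not Eprs or Sars) and in 1 of the 6 that did not rise (Yars). The sequences with the motif in capitals and some bases around it, 5′ to 3′ along the gene, show the shared letters; in the first 4 genes the motif stands on the opposite strand and thus reads TTGCATCA or TTTCATCA.
Aars, chr8:111033704-111033763, plus strand: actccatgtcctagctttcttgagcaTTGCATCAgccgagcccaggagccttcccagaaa
Gars, chr6:55037945-55038000, plus strand: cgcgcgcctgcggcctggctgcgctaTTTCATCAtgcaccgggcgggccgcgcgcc
Tars, chr15:11399659-11399699, minus strand: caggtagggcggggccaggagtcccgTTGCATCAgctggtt
Iars, chr13:49682126-49682155, plus strand: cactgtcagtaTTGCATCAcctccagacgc
Yars, chr4:129189895-129189924, plus strand: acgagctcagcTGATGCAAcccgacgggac
Counted from the start site, the first base of the motif lay at -112 in Aars, -30 in Gars and -15 in Tars, and just past the start in Iars (8) and Yars (4). Aars had a further match at 10. These letters are a description of the windows and not evidence of binding.

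The motif CACGTG, the canonical E-box of MYC and MAX, was searched in the same windows and reads alike on both strands. It occurred in 4 of 12 cytosolic members (33.3%, Aars, Farsb, Iars and Tars), in 1 of 14 mitochondrial members (7.14%, Ears2) and in 8.09% of all genes. Among cytosolic members with a window, it was found in 3 of the 6 that rose and in 1 of the 6 that did not rise. In Aars, Iars and Tars, which rose, it did not overlap TGATGNAA. The Aars and Iars windows are shown with the E-box in capitals.
Aars, chr8:111033670-111033727, plus strand: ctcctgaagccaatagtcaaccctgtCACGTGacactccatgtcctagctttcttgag
Iars, chr13:49682035-49682092, plus strand: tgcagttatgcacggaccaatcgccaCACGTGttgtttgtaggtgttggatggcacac
The E-box began at -146 in Aars and at -69 in Iars. Farsb, with the E-box at -39, did not pass the test (0.06 ± 0.059). None of the 4 mitochondrial genes that fell and have a window held either motif.

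The mitochondrial synthetase genes went more often down than up with the inhibitor: 5 of 16 fell (31.2%, against 22.3% of all genes), 2 rose (12.5%, against 19.2%) and 9 did not pass. The median log2 change was -0.04, from -0.65 for Yars2 to 0.35 for Nars2, close to the median of all genes (-0.06). The share called in either direction was 43.8% for mitochondrial and 68.4% for cytosolic members, against 41.5% of all genes, so the mitochondrial share was near the background. No test of the difference between the classes was made, since the members were chosen with earlier results known.

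Yars2, the mitochondrial tyrosine enzyme, fell most. It read 8.07, 8.40 and 8.18 with DMSO, 7.60 and 7.54 with the inhibitor and 7.84, 7.81 and 7.85 after release. The DMSO arrays were the highest and most spread, the MYCi arrays the lowest, and the 3 groups did not overlap. The fall was 1.57-fold (-0.65 ± 0.092; limma adjusted p = 0.000292). Cars2, the mitochondrial cysteine enzyme, read 6.96, 7.12 and 6.97 with DMSO, 6.35 and 6.52 with the inhibitor and 6.65, 6.77 and 6.81 after release, in the same order as Yars2 and again without overlap, and fell 1.5-fold (-0.58 ± 0.085).

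Sars2, the mitochondrial serine enzyme, read 7.64, 7.55 and 7.44 with DMSO, 7.12 and 7.10 with the inhibitor and 7.26, 7.56 and 7.50 after release. The MYCi arrays were the lowest, and the Resc arrays overlapped the DMSO arrays. It fell 1.35-fold (-0.43 ± 0.096). Pars2, the mitochondrial proline enzyme, fell 1.29-fold (-0.37 ± 0.091; limma adjusted p = 0.00851), from 7.42, 7.59 and 7.30 to 7.14 and 7.0, and its call ended without MYCi replicate 2 (0.0818). Aars2, the mitochondrial alanine enzyme, fell 1.17-fold (-0.22 ± 0.065; 0.0185), from 6.79, 6.75 and 6.67 to 6.49 and 6.53. The Aars2 call ended without DMSO replicate 1 (0.055), MYCi replicate 1 (0.102) or MYCi replicate 2 (0.0576).

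Nars2, the asparagine enzyme of mitochondria, and Rars2, the arginine enzyme, rose. Nars2 read 7.66, 7.76 and 7.66 with DMSO, 8.04 on both MYCi arrays and 7.72, 7.74 and 7.62 after release, a 1.27-fold rise (0.35 ± 0.066; limma adjusted p = 0.00196). Rars2 read 8.64, 8.71 and 8.70 with DMSO, 8.94 and 8.93 with the inhibitor and 8.64, 8.70 and 8.69 after release, a 1.19-fold rise (0.25 ± 0.060; 0.00694). In both genes the MYCi arrays stood above the other 6, which overlapped.

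Among the mitochondrial genes that did not pass, Ears2 (-0.27 ± 0.11; limma adjusted p = 0.0847), the glutamate enzyme that also serves the glutamine tRNA of mitochondria, read 7.29, 7.26 and 6.97 with DMSO and 6.92 and 6.89 with the inhibitor, and without DMSO replicate 3, the lowest of its group, it passed (0.0174). Ears2 passed under 5 alternatives in all, among them the replicate number as a block (0.0458) and median centring (0.0377). With the mean of its 4 probe sets, however, its direction turned (0.12; 0.294). Fars2 (-0.20 ± 0.089; 0.101), the phenylalanine enzyme of mitochondria, Wars2 (0.23 ± 0.10; 0.107), Hars2 (0.18 ± 0.088; 0.133) and Iars2 (0.18 ± 0.084; 0.117) had MYCi arrays outside the DMSO range without passing. The other Fars2 probe set fell (-0.47, limma adjusted p = 0.0183). Fars2 passed under 4 alternatives, among them the mean of its probe sets (-0.34, 0.0183) and median centring (0.0269). Iars2 passed with a variance trend and robust fitting (0.0425). Lars2 (-0.03 ± 0.064), Mars2 (-0.06 ± 0.094), Tars2 (-0.01 ± 0.078) and Vars2 (0.01 ± 0.084) had overlapping arrays. Mars2, the methionine enzyme, had the lowest level of all members, 4.03 to 4.36 on the 8 arrays.

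**Figure D2:**
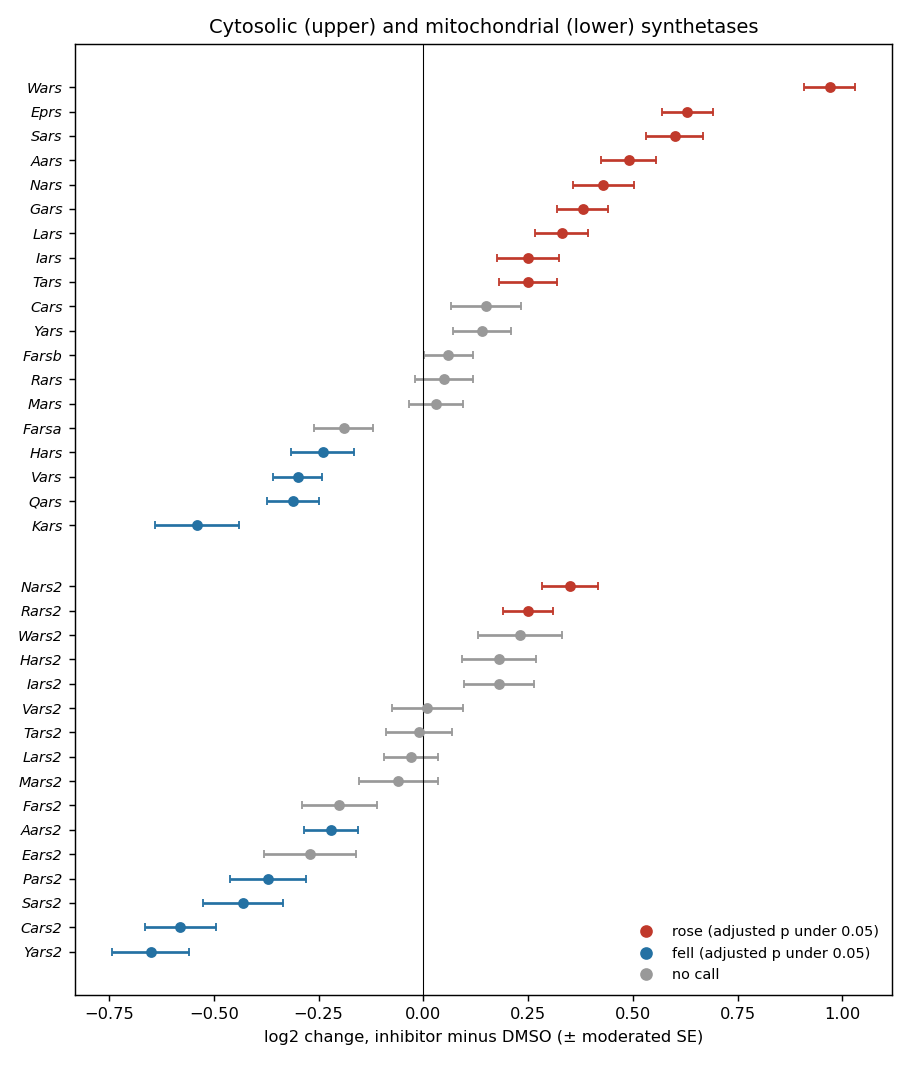
Log2 change of each synthetase gene between inhibitor-treated (n = 2) and DMSO (n = 3) arrays (horizontal axis), with bars for the moderated standard error; the upper block is cytosolic and the lower block mitochondrial, and colour marks rises, falls and genes without a call. Cytosolic genes run from 0.97 (Wars) to -0.54 (Kars) and mitochondrial genes from 0.35 (Nars2) to -0.65 (Yars2).

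Enzymes for the same amino acid in the cytosol and the mitochondrion can be set side by side. There were 15 such pairs, counting Farsa and Farsb each with Fars2. In 2 pairs the cytosolic gene rose and the mitochondrial gene fell: alanine (Aars 0.49 ± 0.066, Aars2 -0.22 ± 0.065) and serine (Sars 0.60 ± 0.068, Sars2 -0.43 ± 0.096). In 2 more, the mitochondrial gene fell and the cytosolic one did not pass: tyrosine (Yars 0.14 ± 0.069, Yars2 -0.65 ± 0.092) and cysteine (Cars 0.15 ± 0.084, Cars2 -0.58 ± 0.085). The asparagine pair was the only one in which both rose (Nars 0.43 ± 0.073, Nars2 0.35 ± 0.066), and no pair had a falling cytosolic with a rising mitochondrial gene. In 4 pairs only the cytosolic gene was called, upward, as for tryptophan (Wars 0.97 ± 0.061, Wars2 0.23 ± 0.10). Hars and Vars fell without a call for Hars2 or Vars2, Rars2 rose without a call for Rars, and 3 pairs had no call. The cytosolic change was the higher of the pair in 12 of 15. Differences within pairs were not tested.

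Of the called genes with several probe sets, 6 of 8 cytosolic and 1 of 3 mitochondrial ones were called alike on every probe set. Several probe sets were present for 23 of the 35 members. Each of the 6 rising cytosolic genes with more than 1 probe set (Aars, Eprs, Iars, Nars, Sars and Wars) rose on all of them, with Wars at 0.79 to 1.13 over 4 probe sets and Eprs at 0.55 to 0.89 over 4. Qars was contradictory: its probe sets with mean levels of 10.88 and 10.70 fell (-0.31 and -0.27), 1 at 8.35 did not pass (-0.07), and 1 at 4.96 rose (0.60). With the mean of its probe sets Qars had no call (-0.01; limma adjusted p = 0.909). Hars fell on 1 of 2. Yars2 fell on both of its probe sets (-0.65 and -0.49), whereas Cars2 fell on 1 of 3 (-0.58, -0.26 and -0.01) and Nars2 rose on 1 of 2, the other lying at 2.56, within the range of the Trpn controls. Nars2 lost its call with the mean of its probe sets (0.103). The kept probe sets of Wars, Farsb and Qars (suffix x) and of Aars and Iars (suffix s) belong to types that can bind more than 1 transcript.

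**Figure D3:**
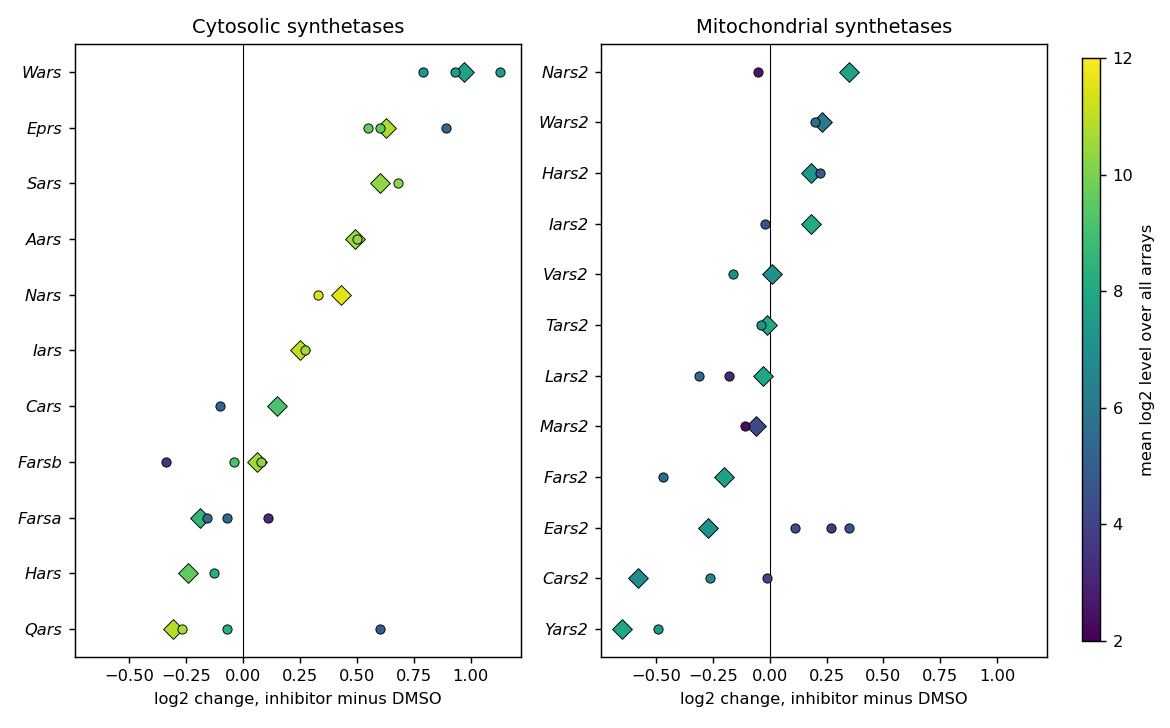
Log2 change between inhibitor-treated and DMSO arrays (horizontal axis) for each probe set of the synthetase genes that have more than 1; diamonds mark the probe set kept for the gene, circles the others, and colour gives the mean log2 level over all 8 arrays. The 4 Wars probe sets lie between 0.79 and 1.13, and the 4 Qars probe sets between -0.31 and 0.60.

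The ATF4 and integrated stress response list moved upward in the same cells. Of 26 measured members, 19 rose (73.1%, against 19.2% of all genes), 1 fell (3.85%, against 22.3%) and 6 had no call, with a median of 0.53. Atf4 itself rose 1.49-fold (0.58 ± 0.067), and its known target genes Ddit3, encoding CHOP (2.85 ± 0.12), and Trib3, a pseudokinase (1.82 ± 0.075), rose more. Cebpb (3.84 ± 0.10) and Atf5 (2.63 ± 0.071), which encode bZIP transcription factors, and Ddit4 (1.89 ± 0.080), whose product restrains mTORC1, rose strongly as well. Asns, the asparagine synthetase gene and a classic amino acid response target, rose only 1.20-fold (0.26 ± 0.059), less than Nars. The 6 without a call were Psat1 (0.09 ± 0.073), Phgdh (0.03 ± 0.076), Psph (-0.04 ± 0.097), Shmt2 (0.15 ± 0.078), Eif4ebp1 (0.03 ± 0.075) and Eif2ak4 (-0.09 ± 0.081). The single fall was that of Cbs (-1.63 ± 0.082), a gene of cysteine synthesis, named here after its value was seen. The list was chosen with earlier results of these arrays known, so it is no independent evidence of direction.

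Of the amino acid transporter genes, 9 of 16 rose (56.2%, against 19.2% of all genes) and 2 fell (12.5%, against 22.3%), with a median of 0.58. Slc38a1 (1.20 ± 0.063), which imports glutamine and other small neutral amino acids, Slc1a4 (1.19 ± 0.061), a carrier of alanine, serine and cysteine, and Slc7a11 (1.56 ± 0.096), the cystine importer, rose, and Slc43a1 (-0.97 ± 0.067), a carrier of large neutral amino acids, fell. Of the mitochondrial translation factors, 4 of 10 fell (against 22.3% of all genes), 0 rose (against 19.2%) and 6 had no call, with a median of -0.22. Those that fell were Tufm (-0.56 ± 0.083), which delivers charged tRNA to the mitochondrial ribosome, its exchange factor Tsfm (-0.32 ± 0.065), the release factor gene Mtrf1l (-0.54 ± 0.081) and the peptidyl-tRNA hydrolase gene Mrpl58 (-0.38 ± 0.073).

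Other genes of tRNA charging and delivery were mixed, with 3 rises and 3 falls among 12 (25% each way, against 19.2% and 22.3% of all genes). Xpot, the exporter of tRNA from the nucleus, rose 1.57-fold (0.65 ± 0.068), and Sepsecs, which acts in making selenocysteine on its tRNA, rose 1.44-fold (0.53 ± 0.084). Aarsd1, an editing protein for mischarged alanine tRNA (-0.37 ± 0.061), and Dtd1, a D-aminoacyl-tRNA deacylase (-0.45 ± 0.094), fell. Myc (-0.17 ± 0.12; limma adjusted p = 0.316) and Max (-0.10 ± 0.074; 0.319) did not pass.

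**Figure D4:**
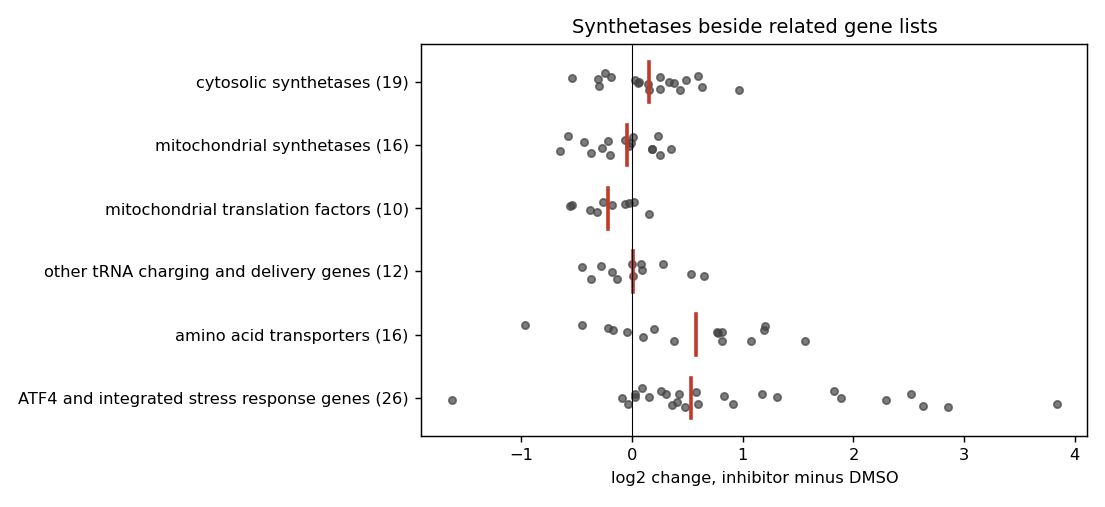
Log2 change between inhibitor-treated and DMSO arrays (horizontal axis) for the genes of 6 lists, with the number measured in parentheses; each point is a gene and the red line the median of its list. The medians are 0.15 for cytosolic and -0.04 for mitochondrial synthetases, -0.22 for mitochondrial translation factors and 0.53 for ATF4 and stress response genes.

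After release, no cytosolic synthetase gene differed from DMSO past the threshold (limma, 0 of 19, against 8.66% of all genes, of which 4.66% rose and 4.01% fell), and 2 of 16 mitochondrial genes were lower. At an unadjusted limma p under 0.05 the cytosolic count was 7 of 19, beside 22.6% of all genes. All 19 cytosolic changes were above 0, from 0.00 to 0.22 with a median of 0.09, beside 9186 of all 18193 genes. Members share arrays, so they are not separate observations, and the count was 18 with median centring, with repeated quantile normalization, with the mean of all probe sets or without Resc replicate 3, and 17 without DMSO replicate 1, DMSO replicate 3 or Resc replicate 2. The Resc arrays of 7 cytosolic genes lay above all DMSO arrays, where 14.6% of all genes did so and 28.6% did not overlap in either direction: Aars, Gars, Lars, Mars, Nars, Tars and Wars. The closest to the threshold were Aars (0.22 ± 0.059; limma adjusted p = 0.0542), Wars (0.20 ± 0.055; 0.0583), Nars (0.22 ± 0.065; 0.0686) and Lars (0.19 ± 0.058; 0.0723). With a variance trend and robust fitting all 7 genes without overlap passed, and Nars passed without DMSO replicate 3 (0.0464).

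Fars2 and Yars2 were the mitochondrial genes below DMSO after release. Fars2 read 7.85, 7.95 and 7.88 with DMSO, 7.79 and 7.59 with the inhibitor and 7.28, 7.52 and 7.46 after release, so that its lowest values were those of the released cells. It fell 1.39-fold relative to DMSO (-0.47 ± 0.080; limma adjusted p = 0.00599), and its second probe set fell too (-0.73). Yars2 was 1.31-fold lower (-0.38 ± 0.082; 0.0192), a call that ended without Resc replicate 1 (0.0562), 2 (0.0644) or 3 (0.0516). Cars2 (-0.27 ± 0.076; 0.057) and Aars2 (-0.17 ± 0.058; 0.117) had Resc arrays below all DMSO arrays without passing. The Resc arrays thus lay below all DMSO arrays in 4 of 16 mitochondrial genes, beside 14% of all genes. They lay above in 1, Lars2 (0.11 ± 0.058; 0.295), beside 14.6% of all genes. The 5 of 16 without overlap stand beside 28.6% of all genes, a similar share. The median of the mitochondrial members was 0.00.

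Between released and inhibitor-treated cells, 5 cytosolic genes rose and 6 fell, and 5 mitochondrial genes rose and 4 fell, where 41.9% of all genes were called, 22.7% rising and 19.2% falling. The arrays of the groups did not overlap in 15 cytosolic and 12 mitochondrial genes, beside 61.9% of all genes. This comparison shares its MYCi arrays with the inhibitor comparison and its Resc arrays with the one above, so the 3 are not independent. The cytosolic genes lower in released cells were Wars (-0.77 ± 0.061), Eprs (-0.58 ± 0.061), Sars (-0.54 ± 0.068), Aars (-0.28 ± 0.066), Gars (-0.25 ± 0.062) and Nars (-0.21 ± 0.073; limma adjusted p = 0.0467). Iars (-0.13 ± 0.074), Lars (-0.14 ± 0.064) and Tars (-0.10 ± 0.069) did not pass. Kars rose 1.53-fold (0.61 ± 0.10), as did Qars (0.38 ± 0.062), Hars (0.33 ± 0.075), Vars (0.30 ± 0.059) and Farsa (0.21 ± 0.070; 0.0371). Of the 4 Qars probe sets, 2 rose (0.38 and 0.41), 1 had no call (0.15) and the one at a level of 4.96 fell (-0.28). Without MYCi replicate 1, only 6 cytosolic genes were called, and the calls of Aars (0.0721), Gars (0.0773), Hars (0.0619), Nars (0.248) and Farsa (0.0608) ended.

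In the mitochondrial class, the genes higher in released than in inhibitor-treated cells were Ears2 (0.39 ± 0.11), Sars2 (0.33 ± 0.096), Cars2 (0.31 ± 0.085), Pars2 (0.27 ± 0.091) and Yars2 (0.26 ± 0.092), and the lower ones were Nars2 (-0.34 ± 0.066), Iars2 (-0.32 ± 0.084), Fars2 (-0.27 ± 0.089) and Rars2 (-0.26 ± 0.060). The Ears2 probe sets did not go together: the kept one rose, another with a mean level of 4.31 fell (-0.33), 2 had no call, and the mean of all 4 was -0.04 (limma adjusted p = 0.765). Without MYCi replicate 1 there were 2 calls in place of 9, and 5 without MYCi replicate 2, Resc replicate 2 or Resc replicate 3. Nars2 and Rars2 were the calls that lasted without MYCi replicate 1. With the replicate number as a block 6 mitochondrial calls were left, since Fars2 (0.0678), Pars2 (0.0628) and Yars2 (0.0753) no longer passed, and in the cytosolic class Farsa (0.0847) and Nars (0.0796) were lost. Of the related lists, 19 of 26 ATF4 and stress response genes were lower (73.1%) and 2 higher (7.69%) in released cells. Of 16 amino acid transporters 9 were lower (56.2%) and 4 higher (25%), and 4 of 10 mitochondrial translation factors were higher (40%) and 0 lower. Over all genes 19.2% were lower and 22.7% higher, so the share of transporters that were higher was near that of all genes. Aimp2 rose (0.46 ± 0.067) and Xpot fell (-0.57 ± 0.068). Myc, which did not pass with the inhibitor, was above both other groups after release: it read 5.81, 6.04 and 5.91 with DMSO, 5.69 and 5.82 with the inhibitor and 6.49, 6.23 and 6.67 after release (0.54 ± 0.11 against DMSO; limma adjusted p = 0.0148).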

How the data were processed

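The deposited values were log2 levels per probe set. Per the submitters' processing notes, the authors used RMA, oligo 1.32.0 and limma 3.2.15; further settings are not given in the sources used here. RMA normalizes quantiles between arrays, so a change shared by most genes would not be seen, and no read depth applies: the number of arrays (8) limits the precision.

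Of 45101 probe sets, 34945 carried 1 gene symbol in the platform annotation, 932 several, 9160 none, and 64 were controls. Those with 1 symbol gave 18193 genes, each taken from the probe set with the highest mean over the 8 arrays. A model with 1 mean for each of the 3 groups was fitted to all genes with limma 3.58.1 in R 4.3.3 (lmFit, eBayes), and p-values of the 3 comparisons were adjusted by Benjamini-Hochberg over all genes, with a threshold of 0.05. All tests were two-sided. Promoter windows were searched in Python 3.11.15. The fit was tested on simulated data with 200 changed genes. For MYCi against DMSO, Resc against DMSO and Resc against MYCi, 83%, 94% and 86% of changes of log2 0.5 were recovered. At log2 1 the share was 100% in each. False calls made up 5.67%, 7.18% and 5.58% of the calls, somewhat above the threshold of 0.05.

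The members and lists were chosen with earlier results of these data known. The text names every member, up to 4 genes with the smallest p of each further list, and Atf4, Ddit3, Asns, Trib3, Myc, Max, Pou5f1, Sox2 and Nanog. Cbs, Cdx2, Elf5 and the stress response genes without a call were named beyond this rule, after their values were seen. The 18 alternatives covered the probe set, a level filter, scaling, the variance model, array weights, the arrays in the fit, the threshold, a block on replicate number, and each array left out in turn.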

Additional observations from a re-analysis of the deposited data

How the results depend on the processing

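Among the synthetase results under 18 alternatives, 1693 kept their direction and side of the threshold, 82 lost a call, 42 gained one and 73 changed direction. The stricter threshold, level filter, test of every probe set, variance model, fit of only the compared groups and removal of an array outside a comparison keep the log2 change. These could not turn a direction, and the stricter threshold could add no call, so the 1693 include results that were fixed in advance. Of the 73 that changed direction, 72 had no call as reported or under the alternative. The other was Ears2 between Resc and MYCi (0.39 as reported), at -0.04 with the mean of all probe sets (limma adjusted p = 0.765). The mean of all probe sets also turned, between MYCi and DMSO, Ears2 (0.12), Farsb (-0.06) and Vars2 (-0.08), between Resc and DMSO, Farsb (-0.01), Lars2 (-0.07), Mars2 (-0.02), Nars2 (-0.01), Tars2 (0.01), Vars2 (-0.08) and Wars2 (-0.03), and between Resc and MYCi, Cars (0.07) and Farsb (0.05). Median centring turned Mars (-0.02) and Vars2 (-0.04) in the first comparison, Nars2, Vars and Vars2 (-0.01 each) in the second, and Cars, Rars and Vars2 (0.03 each) in the last. Repeated quantile normalization turned Vars2 (-0.07), Farsb (-0.02), Tars2 (0.01) and, between Resc and MYCi, Vars2 (0.09). Array weights turned Vars2, Rars2 and Tars2 (0.00 each) and, between Resc and MYCi, Vars2 (0.01), and the replicate block turned Rars (0.00). Leaving out single arrays turned small changes without a call. Between MYCi and DMSO the values then ran for Mars from -0.01 to 0.07, Rars from -0.02 to 0.12, Mars2 from -0.18 to 0.06, Tars2 from -0.06 to 0.04 and Vars2 from -0.04 to 0.06. Between Resc and DMSO the values then ran for Farsa from -0.01 to 0.06, Farsb from -0.01 to 0.03, Kars from -0.03 to 0.13, Vars from -0.01 to 0.02, Mars2 from 0.00 to 0.11, Nars2 from -0.02 to 0.04, Rars2 from -0.03 to 0.01, Tars2 from -0.05 to 0.05, Vars2 from -0.06 to 0.07 and Wars2 from -0.02 to 0.14. Between Resc and MYCi the values then ran for Cars from -0.10 to 0.08, Rars from -0.08 to 0.06, Mars2 from -0.03 to 0.22, Tars2 from -0.03 to 0.04 and Vars2 from -0.06 to 0.06. Cytosolic genes called between Resc and DMSO, 0 as reported, numbered 1 with every probe set tested, 1 with the mean of all probe sets, 1 with median centring, 2 with repeated quantile normalization, 4 without genes under the 30th percentile of level and 7 with a variance trend and robust fitting. For that comparison all genes called (1576) numbered 2641 with trend and robust fitting and 657 at an adjusted p under 0.01, where 1 mitochondrial gene was left of 2, and the mitochondrial median of 0.00 became -0.07 with the mean of all probe sets. Between Resc and MYCi, the 9 mitochondrial calls became 3 with the mean of all probe sets and 2 at 0.01. Leaving out each array in turn gave 5931 to 7446 called genes between MYCi and DMSO, 1000 to 1344 between Resc and DMSO and 6003 to 7637 between Resc and MYCi. In the same order, cytosolic calls ranged from 10 to 13, 0 to 1 and 6 to 11, and mitochondrial calls from 5 to 8, 1 to 2 and 2 to 9. Cytosolic medians ranged from 0.07 (without MYCi replicate 1) to 0.24 (without MYCi replicate 2), 0.07 to 0.12 and -0.13 to -0.05, and mitochondrial medians from -0.08 to -0.03, -0.05 to 0.00 and 0.02 to 0.05. The cause of these shifts was not tested. Arrays with the same replicate number did not deviate together (7 pairs, correlations of -0.0562 to 0.0141, against -0.0598 to 0.0687 in 14 other pairs). Deviations were taken from the group means, so those of the 2 MYCi arrays mirror each other and the pairs are not separate. These correlations therefore cannot decide whether the numbers pair the samples. With the replicate block, 98 synthetase results kept direction and call, 5 lost a call, 1 gained one and 1 without a call changed direction. With 2 MYCi arrays, small changes near the threshold rest on single arrays.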
